A study of Mus musculus with 8 samples.

Results

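Derlin-1 is a membrane protein of the endoplasmic reticulum (ER). This is the transcriptome of the adult mouse dentate gyrus when the gene that encodes it, Derl1, was deleted from the central nervous system. The dentate gyrus is a hippocampal region that goes on making neurons throughout life. The comparison asked how the loss of Derlin-1 altered gene expression in this tissue, including the genes of ER stress and those of neurogenesis. Each sample was total RNA of the dentate gyrus from C57BL/6 males, 8 to 9 weeks old. The RNA was labelled with Cy3 and hybridised to 1-colour Agilent arrays. They were 4 of the 8 samples of the series. The 2 control samples were Derlin-1flox/flox, and the 2 Derlin-1 KO samples came from such mice crossed to a line that expresses Cre recombinase from the nestin promoter. The control genotype is given without Cre, so the effects of Cre and of the deletion cannot be told apart. The nestin promoter is active in neural progenitors, so neurons, astrocytes and oligodendrocytes derive from cells in which the floxed gene could be cut, whereas blood, vessels and microglia largely do not. Groups were taken from the sample titles, and nothing states that 2 samples of a genotype came from separate mice, so the p-values measure the spread between these samples, which may be technical. The Derlin-2 samples of the same series, 2 Derlin-2flox/flox controls and 2 Derlin-2 KO samples of the same Cre line, were used only to test whether a difference was larger than the corresponding difference there.

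Of 56605 probes on the array, 36766 were well above background on all 4 arrays of the Derlin-1 line and were analysed. They covered 18579 of the 26894 named genes on the array, and each gene was represented by its brightest probe. A further 15678 probes were below background on all 4 arrays, 293 were above it in KO alone, 98 in the controls alone, 3619 were mixed in other ways, and 151 were left out because their spots were outliers. Each array had 38225 to 39195 probes well above background, and none was saturated. Values are given below as quantile-normalised signal on the log2 scale, and a change is the KO mean minus the control mean on that scale, with its standard error (SE). A level describes its own probe and cannot be set against that of another probe. The 4 arrays lay on 1 slide, with the controls at the positions 1 and 2 and the KO samples at 3 and 4, so position and genotype cannot be told apart. Across all analysed probes the 2 controls correlated at r = 0.990 and the 2 KO samples at r = 0.996, against 0.991 to 0.995 between the genotypes. The first control stood apart in interferon genes and the second in blood genes, and the samples numbered 1 and 2 differed in cell type markers in both genotypes, as given with the cell types below.

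Secreted and membrane proteins fold in the ER with the help of chaperones, of which Hspa5 (BiP) is the most studied, and of enzymes that form disulfide bonds. Proteins that fail to fold are drawn back across the membrane and degraded, a route in which the Derlins act as membrane components. When unfolded proteins accumulate, the sensors Atf6, Ern1 (IRE1) and Eif2ak3 (PERK) start the unfolded protein response, which raises chaperone transcription through ER stress elements in promoters and, through Atf4, the transcription of amino acid and stress genes. In the dentate gyrus, radial stem cells give rise to dividing progenitors and then to granule neurons, and this sequence has marker genes for each step.

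The ER stress element is shown first, because 9 of the ER genes described below carry it. It consists of CCAAT, any 9 bases, and CCACG on either strand. The following are the 250 bases before the transcription start of 4 genes, from RefSeq promoters of build GRCm38.p6, written 5′ to 3′ in the direction of the gene with the element in capitals. They are Derl3 at chr10:75893148-75893397 (plus strand), Hspa5 at chr2:34771840-34772089 (plus strand), Pdia6 at chr12:17266339-17266588 (plus strand) and Calr at chr8:84846932-84847181 (minus strand). In Derl3 and Calr the element is read from the opposite strand, so CGTGG comes first.
Derl3: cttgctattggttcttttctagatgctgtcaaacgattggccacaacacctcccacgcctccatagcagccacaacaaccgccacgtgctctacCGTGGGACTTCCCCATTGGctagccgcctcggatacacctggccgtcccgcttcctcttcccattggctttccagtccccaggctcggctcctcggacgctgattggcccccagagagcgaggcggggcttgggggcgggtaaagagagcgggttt
Hspa5: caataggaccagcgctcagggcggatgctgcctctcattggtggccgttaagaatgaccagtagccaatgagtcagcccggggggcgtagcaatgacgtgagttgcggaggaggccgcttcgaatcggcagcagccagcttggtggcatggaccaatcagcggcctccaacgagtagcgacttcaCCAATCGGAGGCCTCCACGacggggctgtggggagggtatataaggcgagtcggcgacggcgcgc
Pdia6: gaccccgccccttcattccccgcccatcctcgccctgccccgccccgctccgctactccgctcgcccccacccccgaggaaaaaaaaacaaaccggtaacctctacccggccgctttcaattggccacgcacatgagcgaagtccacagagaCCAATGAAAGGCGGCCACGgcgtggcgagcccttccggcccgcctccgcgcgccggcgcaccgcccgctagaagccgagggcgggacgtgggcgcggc
Calr: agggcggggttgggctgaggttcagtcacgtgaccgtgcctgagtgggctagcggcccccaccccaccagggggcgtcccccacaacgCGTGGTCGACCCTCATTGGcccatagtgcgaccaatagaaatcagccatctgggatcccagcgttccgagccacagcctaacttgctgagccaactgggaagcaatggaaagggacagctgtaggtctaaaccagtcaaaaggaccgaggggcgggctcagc

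The element began 156, 65, 98 and 162 bases before the start of Derl3, Hspa5, Pdia6 and Calr, respectively. It was rare, since 39 of 32851 RefSeq promoter windows (250 bases before to 50 after the start, 0.119%) held it. Among 13472 measured genes with a promoter in the table, 19 held it. Both KO arrays exceeded both controls in 10 of the 19 (52.6%), against 15.1% of the genes without it, and the reverse was seen in 0 of the 19. The median change of the 19 genes was 0.28, against -0.02 without the element. The 10 included 9 genes of the ER lists, namely Derl3, Hspa5, Pdia6, Calr, Hsp90b1, Canx, Creld2, Dnajc3 and Syvn1. These were all 9 of the 199 ER genes with a promoter that held the element, with a median change of 0.47, against 0.05 in the other 190. Of those 190 without the element, 71 were also higher and 20 lower on both KO arrays. Of the 10 genes with the element outside the ER lists, 1 was higher on both KO arrays (Alg12, an enzyme of glycan assembly, 0.28), and their median change was 0.06. The core TGACGTG, which XBP1 and ATF6 can bind, stood in 661 windows (2.01%), and the 393 measured genes that held it had a median change of -0.01. The match is of letters only and does not show that a factor binds there.

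Across the transcriptome, no probe passed the test. By limma with Benjamini-Hochberg adjustment, 0 of 36766 probes (0%) had an adjusted p under 0.05, and the smallest adjusted p was 0.596. At an unadjusted p under 0.05 there were 2611 probes (7.10%), of which 1812 were higher and 799 lower in Derlin-1 KO. All differences below are therefore described by their values and by whether the arrays of the genotypes overlapped, and none is a called change. With 2 samples against 2, an exact permutation test of any single value cannot give a p below 0.333. The KO arrays both exceeded the control arrays in 3040 genes (16.4%) and both fell short of them in 3302 genes (17.8%), and counts in any gene list are to be read against these shares. At least a 1.5-fold higher mean in KO was found for 243 genes (1.31%) and at least a 1.5-fold lower mean for 244 genes (1.31%). The median gene differed by -0.02, with 5th and 95th percentiles of -0.33 and 0.34. Over probes, 56.6% of the differences of at least 1.5-fold were higher in KO. The share was 81.0% when each array was scaled to its 75th percentile and 79.3% in the deposited log2 values, which followed that scaling closely. Of such differences, 48.4% were higher with normexp background correction. Without the first control, 898 were higher and 1240 lower.

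Large differences were mainly those of dim probes. Among the 4645 dimmest genes 5.34% differed by at least 1.5-fold, with a median SD between replicates of 0.193, whereas among the 4645 brightest 0.495% did, with a median SD of 0.0767. Long non-coding RNA genes differed by at least 1.5-fold more often (6.24% of 1522) than protein-coding genes (1.89% of 15357). The brightest probe was the only one for 189 of the 243 higher genes and 203 of the 244 lower genes. Where several probes measured a gene, all had the same sign in 27 of 54 higher genes and in 24 of 41 lower genes, against 49.7% of 8016 genes overall.

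**Figure D1:**
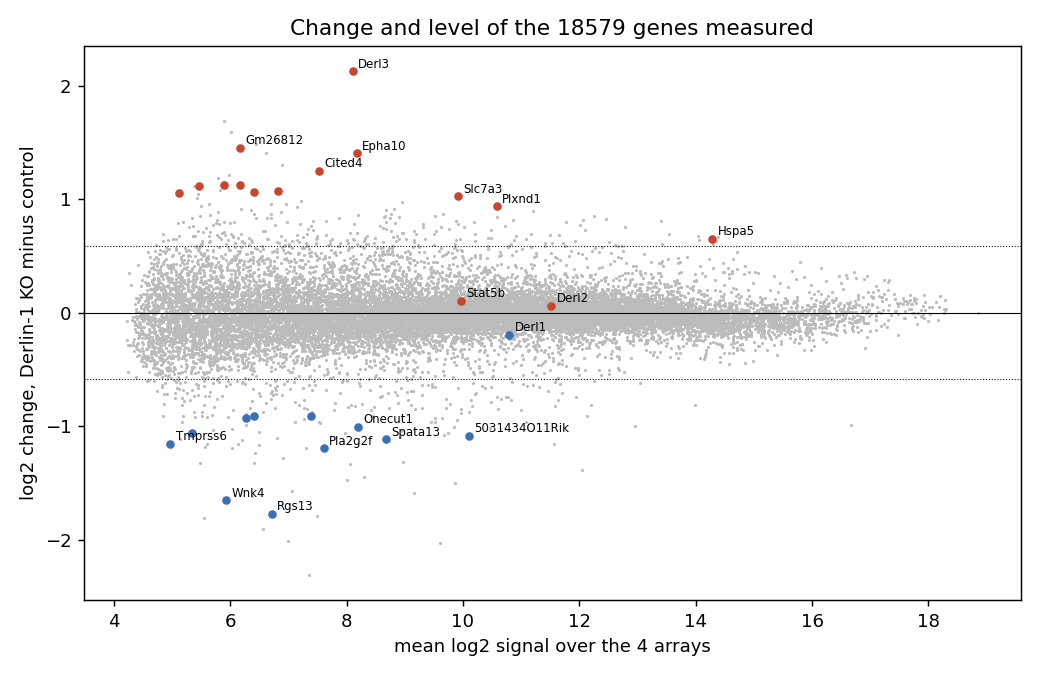
Change of each of the 18579 genes (vertical axis, KO mean minus control mean, log2) against its mean level over the 4 arrays (horizontal axis, log2 signal), 1 point per gene, with genes named by rule in red (higher) or blue (lower) and dotted lines at 1.5-fold. The spread is widest among dim genes, and Derl3 at 2.13 is the highest point.

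The targeted gene gave an uneven check of the labels. The brighter Derl1 probe read 10.94 and 10.85 in the controls and 10.65 and 10.74 in Derlin-1 KO. Both KO values were below both control values, but the change was only -0.20 (SE 0.11, limma adjusted p = 0.834). The second Derl1 probe was higher in KO, at 8.04 and 7.81 against 7.46 and 7.46, a change of 0.46 (SE 0.13, limma adjusted p = 0.601). Whether either probe lies in the deleted part of the gene is not given in the sources used here, so neither checks the deletion. None of the 20 measured genes nearest to Derl1, 10 on each side, differed by 1.5-fold, and their changes ran from -0.39 to 0.46. Derl2, the closest family member, read 11.47 and 11.51 in controls against 11.54 and 11.56 in KO, a change of 0.06 (SE 0.10).

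Derl3, the family member found mainly in secretory tissues, had the highest change of the 18579 genes measured. Its values were 6.88 and 7.20 in the controls and 9.02 and 9.31 in Derlin-1 KO. The groups were far apart relative to their spread (SD 0.226 and 0.207, n = 2 each), and the means differed by 2.13 (SE 0.17, 4.37-fold, limma adjusted p = 0.596). In the fit over 8 arrays it stood at 2.12 here and at 1.21 in Derlin-2 KO, and the difference of 0.91 (SE 0.39) did not pass the test (limma adjusted p = 0.857).

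The chaperones of the ER lumen were higher in Derlin-1 KO. Of 29 measured ER chaperones and co-chaperones, 17 had both KO arrays above both control arrays and 3 had both below, none by a called change, and the list's median change was 0.14 against -0.02 for all genes. Hspa5 read 14.02 and 13.88 in controls against 14.64 and 14.58 in KO. Its KO values did not overlap the control values, the change was 0.65 (SE 0.11, 1.57-fold, limma adjusted p = 0.596), and its 3 probes gave 0.58 to 0.65. Sdf2l1, a partner of the ER Hsp40 proteins, read 8.57 and 8.48 in controls against 9.29 and 9.12 in KO, a change of 0.68 (SE 0.12, 1.60-fold). Calr, the lectin chaperone calreticulin, read 13.01 and 13.22 in controls against 13.65 and 13.80 in KO, a change of 0.61 (SE 0.13, 1.52-fold). The ER Hsp90 gene Hsp90b1 had the same order, at 14.36 and 14.46 against 14.85 and 14.91, a change of 0.47 (SE 0.11). Canx, the membrane lectin calnexin, differed by 0.36 (SE 0.10), with both of its probes higher in KO. Creld2 (0.29, SE 0.16) and Dnajc3 (0.12, SE 0.11) were nearer to their errors. So was Syvn1 (0.11, SE 0.11), which also holds the ER stress element but is not a chaperone.

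The enzymes that make and rearrange disulfide bonds showed the same order. Of 22 measured, 11 were higher on both KO arrays and 2 lower, with a median change of 0.06. Pdia6 had close replicates, at 14.46 and 14.44 in controls against 14.99 and 14.98 in KO, a change of 0.54 (SE 0.10, 1.45-fold, limma adjusted p = 0.596). Pdia5 differed by 0.61 (SE 0.25), but its second control value, 9.89, came close to the KO values of 10.21 and 10.11. Pdia3 differed by 0.28 (SE 0.10) and Txndc11, a thioredoxin-domain protein of the ER, by 0.32 (SE 0.13). The medians of the chaperone and isomerase lists were positive under each of 14 other settings, at 0.12 to 0.16 and 0.04 to 0.10.

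**Figure D2:**
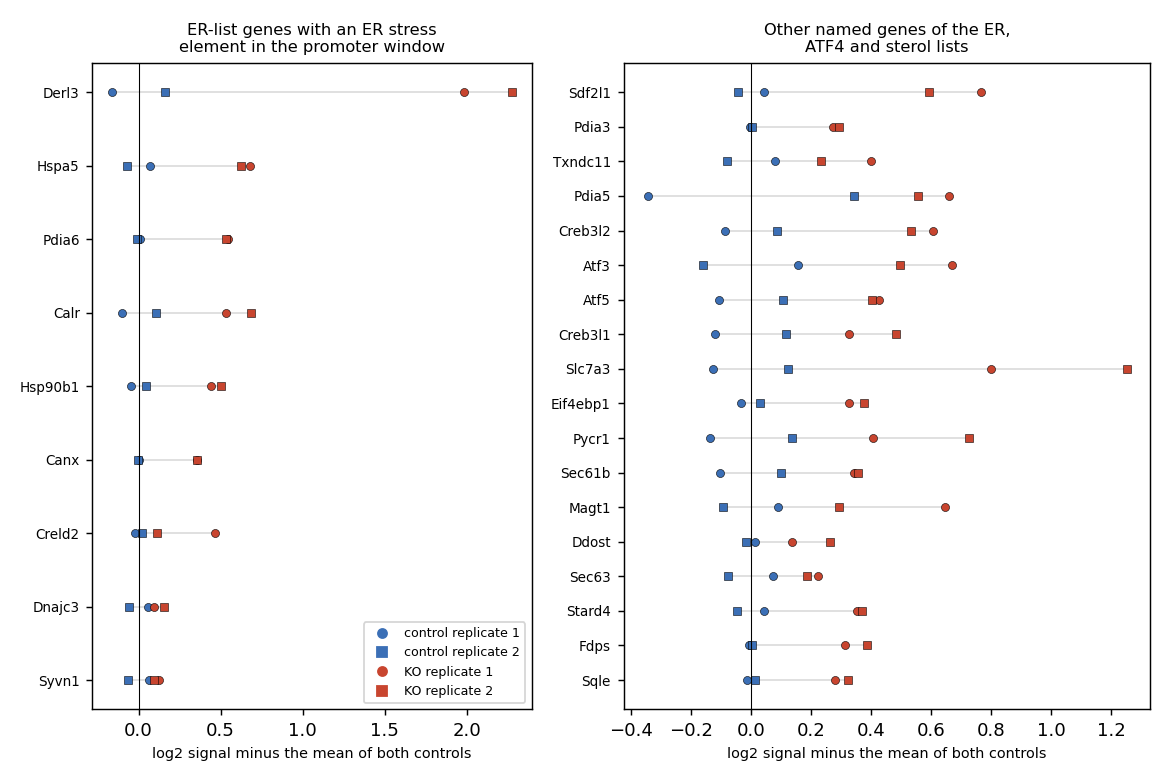
Signal of each gene on the 4 arrays minus the mean of both controls (horizontal axis, log2), with controls in blue, Derlin-1 KO in red, and circles and squares for the samples numbered 1 and 2. The left panel holds the 9 genes with an ER stress element, where Derl3 stands 2.13 above its controls and no KO point overlaps the controls, and the right panel other genes of the ER, ATF4 and sterol lists.

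The other ER lists differed less, or not in 1 direction. Of 37 measured genes of ER-associated degradation, the list to which Derl1 and Derl3 belong, 7 were higher and 9 lower on both KO arrays, and the median change was -0.01. Of 15 genes of glycan trimming, 5 were higher and 4 lower. Edem2, a mannosidase-like protein of glycan trimming, read 7.09 and 6.60 in controls against 6.44 and 6.34 in KO, a change of -0.45 (SE 0.19), with both probes lower. The list of unfolded protein response sensors and factors had 10 of 24 higher and 5 lower, with a median change of 0.01. Creb3l2, a membrane factor related to ATF6, read 9.48 and 9.65 in controls against 10.17 and 10.10 in KO (0.57, SE 0.12), and both of its probes were higher in KO. Of the sensors, picked here with their values known, Eif2ak3 differed by 0.14 (SE 0.11) without overlap, Ern1 by 0.01 (SE 0.11) with overlap, and Atf6 by -0.22 (SE 0.12) with a second probe at 0.25. Xbp1, the factor that Ern1 activates by splicing, differed by 0.34 (SE 0.15) with its 3 probes at 0.34 to 0.35, also named after the values were seen. These probes do not distinguish the spliced form.

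Targets of PERK and ATF4 were higher as a list. Of 42 measured, 22 had both KO arrays above both control arrays and 4 below, and the median change was 0.11, with 0.09 to 0.13 under the other settings. Slc7a3, a transporter of cationic amino acids, read 9.28 and 9.52 in controls against 10.20 and 10.65 in KO, a change of 1.03 (SE 0.20, 2.04-fold). The stress factor Atf3 read 6.06 and 5.74 in controls against 6.57 and 6.39 in KO (0.58, SE 0.16). Atf5, a related factor, differed by 0.41 (SE 0.12) and both of its probes did so. Pycr1, an enzyme of proline synthesis, differed by 0.57 (SE 0.17), and the translation inhibitor Eif4ebp1 by 0.35 (SE 0.10). The mRNA of Atf4 itself differed by 0.01 (SE 0.11) and its second probe by -0.09, which does not bear on its translation. Ddit3 (CHOP) had overlapping arrays, at 9.36 and 10.15 in controls against 9.96 and 10.06 in KO. Trib3, which Ddit3 and Atf4 can induce, read 6.94 and 7.41 in controls against 7.76 and 7.81 in KO, a change of 0.61 (SE 0.18). Atf4, Ddit3 and Trib3 were chosen after their values were seen.

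Genes for entry of new proteins into the ER had 12 of 36 measured members higher and 1 lower on both KO arrays, with a median change of 0.06. Sec61b, a subunit of the translocon, differed by 0.35 (SE 0.12) with both probes higher, and Magt1, an oxidoreductase of the glycosylation complex, by 0.47 (SE 0.16). Of 42 genes of COPII, COPI and ER-Golgi transport, 12 were higher and 2 lower, with a median change of 0.02. Counted together with each gene once, the 8 ER lists held 243 measured genes, of which 94 (38.7%) were higher and 30 (12.3%) lower on both KO arrays. These shares stand beside 16.4% and 17.8% of all genes, and the median change of the 243 was 0.04.

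Sterol synthesis and uptake formed the other metabolic list that was higher. Of 30 measured genes, 13 were higher and 2 lower on both KO arrays, and the median change was 0.11, at 0.09 to 0.15 under the other settings. Fdps, an enzyme of the mevalonate pathway, differed by 0.35 (SE 0.10), with 13.20 and 13.21 in controls against 13.52 and 13.60 in KO. Sqle, which forms squalene epoxide, differed by 0.30 (SE 0.10). The sterol carrier gene Stard4 differed by 0.36 (SE 0.11), but its second probe gave -0.20. Of 22 genes of fatty acid synthesis, 4 were higher and 2 lower, among them the glucose-responsive factor Mlxipl at 0.44 (SE 0.11), whose 3 probes ranged from -0.06 to 0.44.

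Immediate early genes, whose transcription follows neuronal firing, were also higher. Of 53 measured, 22 had both KO arrays above both control arrays and 6 below, with a median change of 0.09. Fos read 8.95 and 8.89 in controls against 9.30 and 9.47 in KO, a change of 0.46 (SE 0.12, 1.38-fold). The nuclear receptor genes Nr4a2 and Nr4a1 differed by 0.59 (SE 0.13) and 0.39 (SE 0.10), with Nr4a1 at 12.15 and 12.12 in controls against 12.55 and 12.50 in KO. Fosl2, a partner of Jun proteins, differed by 0.51 (SE 0.11) on its brighter probe and by -0.21 on the other. In the Derlin-2 line the change of Nr4a1 was -0.12, and the difference between the lines, 0.52 (SE 0.13), did not pass the test (limma adjusted p = 0.756).

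Neuropeptides and proteins of dense-core granules had 14 of 39 measured members higher and 8 lower, with a median change of 0.10. Cort, which encodes the interneuron peptide cortistatin, read 11.53 and 11.78 in controls against 12.38 and 12.55 in KO, a change of 0.81 (SE 0.14, 1.76-fold). Adcyap1, which encodes the peptide PACAP, read 9.16 and 9.33 in controls against 9.88 and 10.12 in KO (0.75, SE 0.14), and both of its probes were higher. Cartpt, another neuropeptide gene, differed by 0.63 (SE 0.14), and the somatostatin receptor gene Sstr2 by 0.69 (SE 0.16). Counted with each gene once, these and the immediate early genes were 92, of which 36 (39.1%) were higher and 14 (15.2%) lower on both KO arrays.

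Genes of excitability did not follow. Of 63 voltage-gated channels 5 were higher and 14 lower on both KO arrays, and of 54 genes of synaptic vesicle release 4 were higher and 15 lower, with median changes of -0.04 and -0.05, of which the first became 0.03 without the first control. Scn4b, a sodium channel beta subunit, read 9.91 and 9.93 in controls against 9.40 and 9.40 in KO, a change of -0.52 (SE 0.10). Kcnq3, a subunit of the M-current, differed by -0.50 (SE 0.13). A second probe of it was well above background in KO alone, at 4.51 and 4.22 against 3.92 and 3.31. Kcna5, a delayed rectifier subunit, was higher at 0.68 (SE 0.15), as was Kcnq5 on its brightest probe (0.53, SE 0.12), although 2 of its 4 probes had the opposite sign. Doc2b, a calcium sensor of vesicle release, was lower on both KO arrays (-0.69, SE 0.16). Probes of the synapsin gene Syn3 disagreed, from -0.73 to 0.84, as did those of the calcium sensor Syt1, from -0.33 to 0.52. Among 38 glutamate and GABA receptor genes, 7 were higher and 6 lower, with Grin2a at 0.58 (SE 0.20) on its brightest probe and as low as 0.00 on another.

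Apart from the lists, the genes with the largest separated differences were mostly of varied function. The 12 with the highest change, among genes without overlap and with an unadjusted limma p under 0.01, were Derl3, Gm26812 (1.45), Epha10 (1.40), Cited4 (1.25), Slc28a3 (1.13), Gm19757 (1.12), H2-M5 (1.12), C530014P21Rik (1.07), Chrdl2 (1.06), 6430537K16Rik (1.05), Slc7a3 and Plxnd1 (0.94). Cited4, a coactivator-binding protein, had close replicates, at 6.92 and 6.88 in controls against 8.19 and 8.10 in KO (SE 0.11, 2.37-fold, limma adjusted p = 0.596). Epha10, an ephrin receptor without kinase activity, read 7.51 and 7.43 in controls against 9.19 and 8.56 in KO, but its second probe gave 0.08. Slc28a3, a nucleoside transporter, read 5.65 and 5.56 in controls against 6.58 and 6.89 in KO. Plxnd1, a semaphorin receptor, read 10.04 and 10.19 in controls against 11.16 and 10.94 in KO, with its 2 probes at 0.69 and 0.94. The secreted BMP antagonist gene Chrdl2 read 5.98 and 5.78 against 6.96 and 6.91.

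Of the 12 with the lowest change, 11 were Rgs13 (-1.77), Wnk4 (-1.65), Pla2g2f (-1.19), Tmprss6 (-1.16), Spata13 (-1.12), 5031434O11Rik (-1.08), Gm31135 (-1.06), Onecut1 (-1.01), Tdrd12 (-0.93), Mmp19 (-0.91) and Upp1 (-0.91). Rgs13, a regulator of G protein signalling, read 7.94 and 7.26 in controls against 6.00 and 5.66 in KO (SE 0.27, 3.42-fold lower in KO, limma adjusted p = 0.596), and its second probe gave -1.35. Wnk4, a kinase that controls ion cotransporters, read 7.02 and 6.48 in controls against 5.05 and 5.14 in KO (SE 0.21, 3.15-fold lower in KO). The secreted phospholipase gene Pla2g2f read 8.14 and 8.26 in controls against 7.09 and 6.93 in KO. Spata13 read 9.52 and 8.95 in controls against 8.17 and 8.07 in KO. Upp1, which cleaves uridine, was at 8.01 and 7.68 in controls and lower on both KO arrays (SE 0.15). Larger differences existed with a wide spread, such as Syt10, a synaptotagmin, at 9.60 and 11.65 in controls against 9.16 and 8.03 (-2.03, SE 0.78), and Gm26641 (-2.31, SE 1.02). These 2 were chosen after their values were seen.

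**Figure D3:**
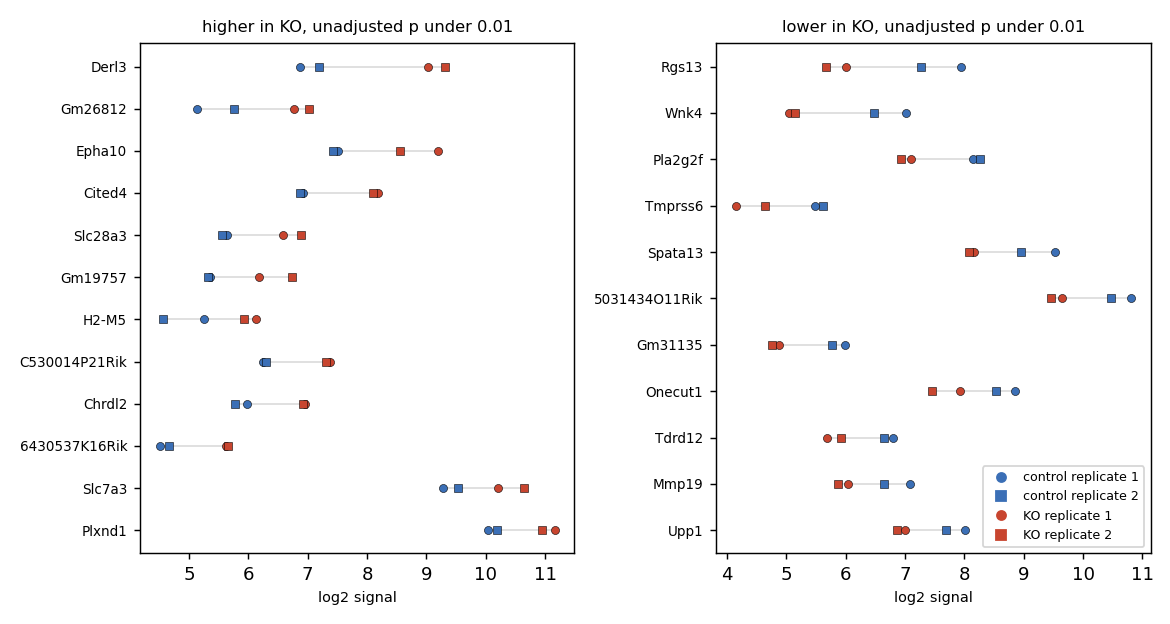
Signal of the 12 highest (left) and 11 of the 12 lowest genes (right) on each of the 4 arrays (horizontal axis, log2), with controls in blue, Derlin-1 KO in red, and circles and squares for the samples numbered 1 and 2. The genes were chosen for arrays that do not overlap, and the Rgs13 and Wnk4 means lie 1.77 and 1.65 below those of their controls.

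Genes of energy metabolism were lower in small steps. Of 75 genes of oxidative phosphorylation, 32 had both KO arrays below both control arrays and 1 above, with a median change of -0.05 and no change beyond -0.16 or 0.10. The median stayed negative under the 14 other settings, at -0.08 to -0.01, although the variance trend and the replicate block could not move it. That of all genes was -0.02 in the main setting. The oxidative phosphorylation median lay above that of all genes in 1 of the 14, at -0.02 against -0.03 without the second control. Uqcrc1, a core subunit of complex III, read 14.27 and 14.12 in controls against 14.01 and 14.05 in KO (-0.16, SE 0.11), and Ndufb9, a subunit of complex I, differed by -0.14 (SE 0.10). Cox6a2, the muscle-type subunit of cytochrome oxidase and here counted with the interneuron markers, was higher instead, at 10.07 and 10.62 in controls against 10.99 and 11.22 in KO (0.76, SE 0.22). Of 37 glycolysis and hypoxia genes, 4 were higher and 12 lower, with a median of -0.05. Together the metabolic lists held 112 genes, of which 44 (39.3%) were lower and 5 (4.46%) higher on both KO arrays.

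Genes of degradation outside the ER were more often lower than higher on both KO arrays, most clearly those of the proteasome. Of all genes, 16.4% were higher and 17.8% lower. The lower share was nearer to this for autophagy (23.3%), cytosolic chaperones (20.6%), the BCL2 family (18.5%) and clock genes (20.8%). The higher share was below that of all genes in each of these lists. Of 40 proteasome genes 5 were higher and 14 lower, with a median change of -0.04 (-0.02 without the first control), and Psmb2 was higher at 0.32 (SE 0.12) on 1 of 3 probes. Of 43 genes of autophagy and ER-phagy 4 were higher and 10 lower, with a median of -0.05 that became 0.01 without the first control, although Atg16l1, which helps to lipidate LC3, read 12.87 and 12.84 in controls against 13.45 and 13.30 in KO (0.52, SE 0.11) on its brightest probe. Of 34 cytosolic heat shock chaperones 5 were higher and 7 lower, with a median of 0.00, and of 27 genes of the BCL2 family 2 were higher and 5 lower. Of 24 clock genes 1 was higher and 5 lower, with Cry1, a repressor of the clock, at 7.07 and 7.03 in controls against 6.43 and 6.27 in KO (-0.71, SE 0.12) and both probes lower. The glucocorticoid targets had 4 of 31 higher and 3 lower, among them Fkbp5, a cochaperone of the glucocorticoid receptor (-0.34, SE 0.11).

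The 4 lists of neurogenesis had more genes lower than higher on both KO arrays. Of 45 measured cell cycle genes of dividing progenitors, 16 had both KO arrays below both control arrays and 3 above. The median change was -0.08 but became 0.00 with each array scaled to its 75th percentile. Nusap1, a protein of the mitotic spindle, read 5.39 and 5.41 in controls against 5.02 and 4.71 in KO (-0.53, SE 0.14). Tpx2 and Aurka, which act together at the spindle, differed by -0.29 (SE 0.12) and -0.25 (SE 0.11). Mki67, the usual marker of dividing cells, went the other way, at 7.65 and 7.46 in controls against 7.79 and 7.77 in KO (0.22, SE 0.12), and Pcna, named after its values were seen, differed by -0.10 (SE 0.11). Of 29 markers of newborn neurons 1 was higher and 6 lower, and the median of -0.04 became 0.00 without the first control. The strongest was Fxyd7, a regulator of the sodium pump, at 12.58 and 12.64 in controls against 11.86 and 11.73 in KO (-0.81, SE 0.11, 1.76-fold lower in KO), with the second probe at -0.92. The proneural factor Neurog2 differed by -0.40 (SE 0.20). Dcx, the usual marker of immature neurons and also named after its values were seen, overlapped between genotypes, with a change of -0.10 (SE 0.16) and a second probe at 0.29.

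Of 38 markers of adult neural stem cells 3 were higher and 8 lower, and the median of -0.04 became 0.00 without the first control and -0.01 with the 75th percentile scaling. Gfap, also a gene of astrocytes, read 13.15 and 13.08 in controls against 13.37 and 13.48 in KO (0.31, SE 0.11), and both probes were higher. Notch1, the receptor that keeps stem cells undifferentiated, differed by 0.75 (SE 0.29), but its second control value of 12.83 lay near the KO values of 13.20 and 13.14. Of 36 genes for the positioning of newborn granule cells 7 were higher and 9 lower, and the median of -0.06 became 0.01 with the 75th percentile scaling, 0.01 without the last 1 in 8 of the array rows and 0.02 with the mean of all probes of each gene. They included the guidance gene Ntn1 at -0.41 (SE 0.12) and the semaphorin receptor gene Nrp2 at 0.28 (SE 0.11). With each gene counted once the lists of neurogenesis held 145 genes, of which 14 (9.66%) were higher and 39 (26.9%) lower on both KO arrays. The shares of all genes were 16.4% and 17.8%. Stat5b, a transcription factor of growth hormone and cytokine signalling, read 9.92 and 9.89 in controls against 10.09 and 9.93 in KO, a change of 0.11 (SE 0.11, limma adjusted p = 0.936). Its list of 24 genes had 4 higher and 5 lower, with Bcl6, a repressor that Stat5 controls, at 0.27 (SE 0.16). The 18 histone deacetylases had 5 higher and 4 lower, with a median of 0.02.

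**Figure D4:**
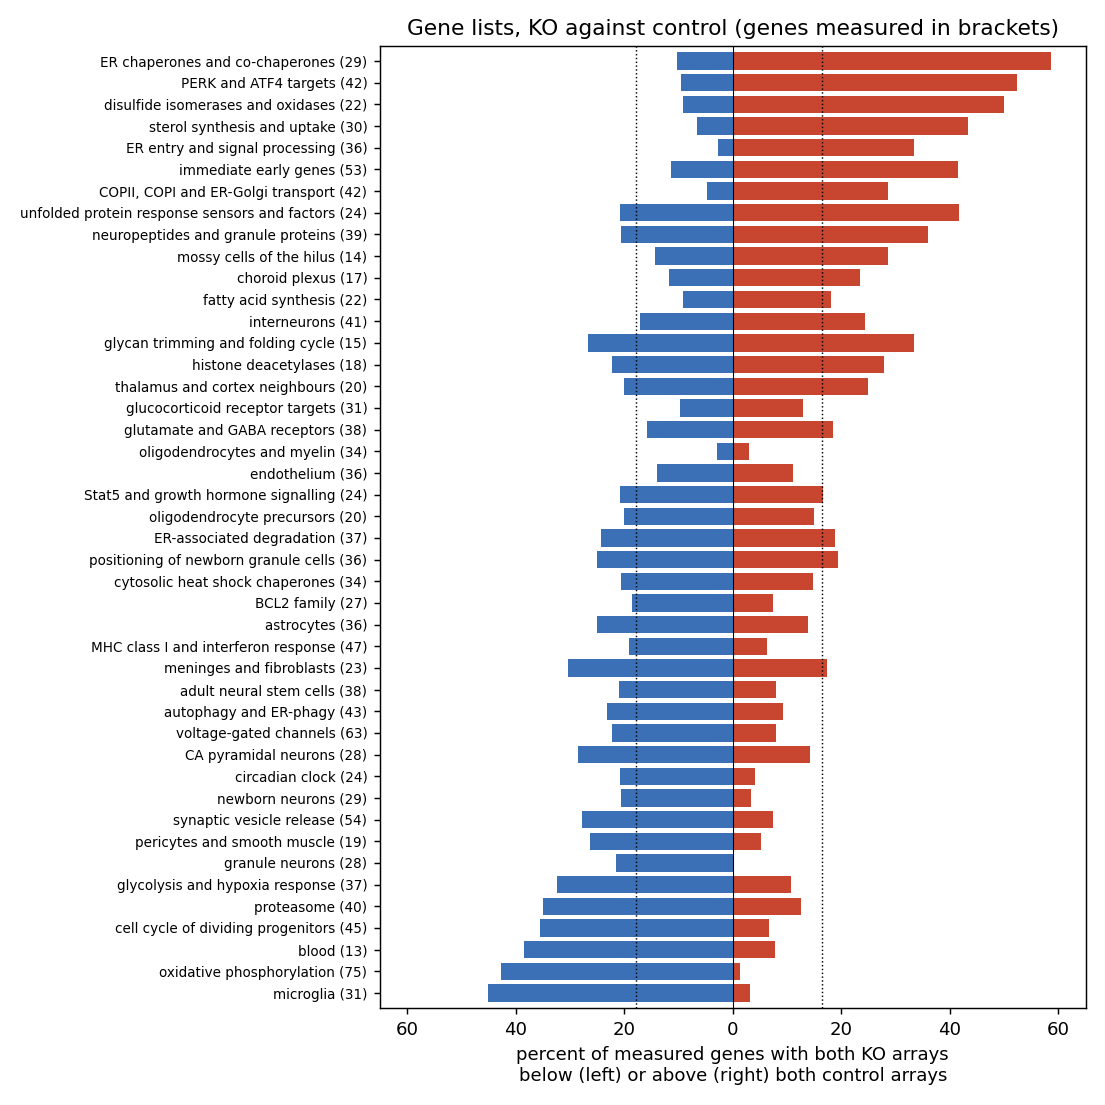
Percent of the measured genes of each list (horizontal axis) whose KO arrays were both above the controls (red, right) or both below them (blue, left), with the 16.4% and 17.8% of all genes as dotted lines. ER chaperones extend furthest to the right at 58.6% and microglia furthest to the left at 45.2%, followed by oxidative phosphorylation at 42.7%.

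The makeup of the dissected tissue varied between replicates. The RNA came from bulk tissue, in which fewer cells of a type and less RNA per cell cannot be told apart. The tissue label could be checked against Prox1, which marks granule neurons of the dentate gyrus and was well above background on all 4 arrays at 12.46 and 12.28 in controls against 12.67 and 12.23 in KO. Over the 28 granule neuron markers, the median level relative to each gene's mean was 0.20 and -0.08 in controls and 0.07 and -0.18 in KO. Over the 28 CA pyramidal markers it was -0.16 and 0.08 in controls and -0.08 and 0.09 in KO, and over the 34 oligodendrocyte markers -0.12 and 0.11 against -0.20 and 0.20. In each genotype the sample numbered 1 was thus higher in granule markers and lower in CA and oligodendrocyte markers than the sample numbered 2. Both samples numbered 1 were above both numbered 2 in 21 of 28 granule markers, whereas both numbered 2 were above in 23 of 34 oligodendrocyte markers. This order crosses the genotypes, and its part in the results was not tested.

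Granule neuron markers had 0 higher and 6 lower on both KO arrays, and their median of -0.12 became -0.01 with the mean of all probes of each gene, 0.03 without the first control and 0.01 without the second KO sample. Plk5, a polo-like kinase of neurons, read 13.82 and 13.09 in controls against 12.68 and 12.24 in KO (-0.99, SE 0.30). C1ql2, a synaptic organiser of mossy fibres, differed by -0.54 (SE 0.24), and Gsg1l, an auxiliary protein of AMPA receptors, differed by -0.62 (SE 0.17). In these 3 genes the first control was the highest array, as it was for the granule list. Of the 28 CA markers 4 were higher and 8 lower on both KO arrays. Fibcd1 overlapped widely, at 6.57 and 7.59 in controls against 6.53 and 8.22 in KO, whereas Coch was higher in KO without overlap (0.65, SE 0.12) and Iyd, chosen after its values were seen, lower (-0.48, SE 0.17). Interneuron markers had 10 of 41 higher and 7 lower, and markers of mossy cells 4 of 14 higher and 2 lower.

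Microglia markers were lower on both KO arrays in 14 of 31 genes and higher in 1, with a median change of -0.09 that ranged from -0.16 to -0.05 under the other settings. The first control carried much of this, with a median level of 0.11 against -0.01 on the second control and -0.03 and -0.05 in KO. Without the first control the median change of the microglia list was -0.05. Csf1r, the receptor on which microglia depend, read 13.97 and 14.08 in controls against 13.81 and 13.77 in KO (-0.24, SE 0.11), and the receptor Cx3cr1 differed by -0.10 (SE 0.11). Of the 47 genes of MHC class I and the interferon response 9 were lower and 3 higher, but the median level was 0.26 on the first control and -0.14, -0.05 and -0.11 on the other arrays. Without that control the list's median of -0.17 became 0.05. Among its genes, H2-Q4 was higher at 15.96 and 15.96 in controls against 16.39 and 16.31 in KO (0.39, SE 0.10), and Xaf1 lower (-0.46, SE 0.15). Lgals3bp was lower on its brighter probe (-0.44, SE 0.14) and at 0.10 on the other.

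Blood markers were lower in 5 of 13 measured genes and higher in 1, and 1 control sample carried much of that difference. Their median level was 0.62 on the second control, against -0.09, -0.25 and -0.14 on the other arrays. Without the second control the median change of -0.44 became -0.01. The haemoglobin gene Hbb-b1 read 8.56 and 9.39 in controls against 8.31 and 8.18 in KO (-0.73, SE 0.30). Among pericyte markers, the channel genes Abcc9 and Kcnj8, which form a potassium channel together, differed by -0.77 (SE 0.12) and -0.58 (SE 0.11), with Kcnj8 at 9.45 and 9.35 in controls against 8.87 and 8.76 in KO. Pericytes as a list had 1 of 19 higher and 5 lower. The meninges and fibroblast list had 4 of 23 higher and 7 lower, with a median of 0.00, among them Islr (-0.55, SE 0.11) and the matrix proteoglycan gene Lum (-0.49, SE 0.13) below and, chosen after its values were seen, the collagen gene Col1a2 (0.27, SE 0.13) above the controls. The choroid plexus marker Ttr, the carrier transthyretin, read 7.76 and 8.95 in controls against 9.13 and 9.40 in KO, and its list of 17 had medians that followed the sample number (-0.14 and 0.14 against -0.16 and 0.13). Astrocyte markers had 5 of 36 higher and 9 lower, and endothelial markers 4 of 36 higher and 5 lower.

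**Figure D5:**
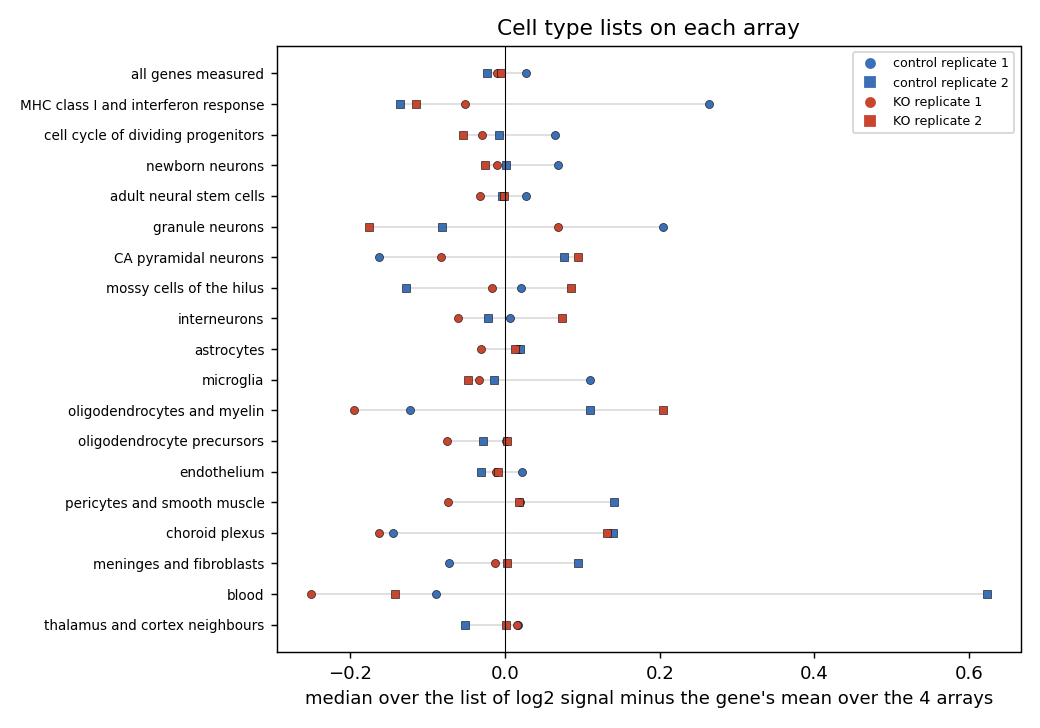
Median over each list of the log2 signal minus the gene's mean over the 4 arrays (horizontal axis), with controls in blue, Derlin-1 KO in red, and circles and squares for the samples numbered 1 and 2. Granule markers are highest on the first control at 0.20, blood markers stand apart on the second control at 0.62, and oligodendrocyte markers split by sample number within both genotypes.

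Probes well above background in 1 genotype only were more often those of the KO. Each KO array also had more probes well above background (38776 and 39195) than either control (38225 and 38604). Of the 293 probes well above background in KO alone, 216 had a gene symbol and 57 had a bound of at least 1.5-fold. Of these 293, 54 lay on the last 1 in 8 of the array rows, where 11.9% of the 18579 genes had their brightest probe. Of the 98 with the reverse pattern, 79 had a symbol, 47 such a bound and 8 a place on those rows. The parts of array position and of the overall number of probes well above background in these counts were not tested. The bound sets the mean of the bright genotype against a level on the dim arrays no lower than the dimmest signal well above background on each. Signals not called well above background can exceed that dimmest signal. The bound is therefore not a strict limit, and at least is used below in this sense. Mgst2, a membrane glutathione transferase of the ER, read 5.91 and 6.40 in KO against 4.31 and 4.32, 3.57-fold higher in KO. Both Mgst2 controls lay above that dimmest signal without being called well above background, so this fold is an estimate from the measured signals. Scgn, which encodes the calcium-binding protein secretagogin, read 5.82 and 5.61 in KO against 3.99 and 3.65, at least 3.17-fold higher. The other large bounds rested mostly on 1 KO array. Gm10344 (at least 4.08-fold) read 8.00 and 4.16 in KO, and the dimmer of these was only 1.08-fold above the level compared. Gml2 (at least 3.30-fold) read 4.72 and 6.82 in KO, the dimmer 1.59-fold above that level, and Foxr1 (at least 2.73-fold) 6.37 and 4.63, the dimmer 1.497-fold above it. In the reverse direction B230110G15Rik was at least 2.86-fold higher in controls, with both control values, 5.26 and 5.86, clear of the level compared. For the other 4 a single control array carried most of the bound. Prm1 (at least 3.58-fold) read 4.74 and 7.05 in controls and 4932441J04Rik (at least 3.34-fold) 4.51 and 6.79, with dimmer arrays 1.61-fold and 1.52-fold above that level. Ift43 (at least 2.63-fold) read 6.07 and 4.54 and Gm14210 (at least 2.52-fold) 6.18 and 4.40, with dimmer arrays 1.55-fold and 1.36-fold above it. The brighter probe of Ift43, a gene of ciliary transport, was well above background on all arrays and differed by only -0.02. In the limma fit that admitted such probes, the smallest adjusted p among them was 0.568.

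The differences of the Derlin-1 line were last set against those of the Derlin-2 line. By limma over 8 arrays, 0 of 36484 probes differed between the lines at an adjusted p under 0.05, with a smallest adjusted p of 0.231 and 2112 probes (5.79%) at an unadjusted p under 0.05. Cited4 stood at 1.23 for Derlin-1 and -0.03 for Derlin-2, a difference of 1.27 (SE 0.17, limma adjusted p = 0.599). Wnk4 differed by -1.63 (SE 0.30) between the lines and Rgs13 by -1.75 (SE 0.33), each with a limma adjusted p of 0.652. For Hspa5 the values were 0.65 and 0.47, a difference of 0.17 (SE 0.16), and for Pdia6 they were 0.55 and 0.44, a difference of 0.11 (SE 0.15). Calr stood at 0.60 and 0.07, a difference of 0.53 (SE 0.18, limma adjusted p = 0.814), and Hsp90b1 at 0.48 and 0.03, a difference of 0.45 (SE 0.18, limma adjusted p = 0.856). No gene is therefore called particular to the Derlin-1 line.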

How the data were processed

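The members of this comparison and the gene lists were chosen with earlier results of these data known. The authors extracted total RNA from the dentate gyrus, amplified it, and hybridised Cy3-labelled cRNA to Agilent 1-colour arrays. The deposited intensity values, named gProcessedSignal in the file headers, were background-subtracted by Agilent Feature Extraction 10.7.1.1. A deposited table of log2 values was used as an alternative and for gene symbols. The methods describe GeneSpring values with quantile normalisation and a baseline at the median of all samples. The KO minus control differences of the deposited values nevertheless followed the 75th percentile scaling closely. Median changes under that scaling and in the deposited values were 0.158 and 0.147 for chaperones, and 0.145 and 0.135 for sterol genes. These 2 settings are therefore not separate checks. The columns of the deposited table name the genotype but no sample, so they were used as replicates without a number. Columns of the authors' own comparisons (fold changes) were not used.

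Control spots and outlier spots were left out, spots of a probe were averaged, and log2 signals of the 4 arrays were quantile-normalised. Probes called well above background on all 4 arrays were fitted with limma 3.58.1 in R 4.3.3 (lmFit and eBayes, two-sided, Benjamini-Hochberg over 36766 probes, threshold 0.05). The fit was also run on simulated data with 200 changed genes, and the outcome is not given here. The number of arrays, 2 a genotype, limits the precision. The difference from the Derlin-2 line was fitted over 8 arrays as a difference of differences, where slide and line cannot be told apart. The columns without a place in the sample table were 0.

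Named genes were Derl1, Derl2, Derl3, Stat5b and Hspa5, the 12 most different genes per direction with separated arrays and an unadjusted p under 0.01, up to 4 separated genes with the smallest p per list, the first 2 markers per cell type, the 5 probes per direction with the largest bound among those on 1 side of background, and the ER genes with a printed promoter. Some genes that the rule names are not reported here. Gene positions were used only for order along the chromosome and for RefSeq promoters of GRCm38.p6, since the array design names another build. Motifs were searched on both strands of 32851 promoter windows, which matched 13472 measured genes.

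Alternatives were scaling to the 75th percentile, normexp with an offset of 50, the deposited log2 values, all 8 arrays, a variance trend, other background filters, leaving out the last 1 in 8 of 384 array rows, the mean of a gene's probes, a 2-fold threshold, the replicate block, each sample left out, and a Student test on each probe. The column of mean signals that normexp was planned on was not in the files used here, so median signals were taken.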

Additional observations from a re-analysis of the deposited data

How the results depend on the processing

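No probe passed an adjusted p of 0.05 in limma under any alternative run, with the smallest adjusted p between 0.180 and 0.636, nor in the Student test on each probe (0 of 36765, with 2162 at an unadjusted p under 0.05). The count at an unadjusted p under 0.05, 2611, became 1654 with all 8 arrays in the fit and 1006 to 5447 when a sample was left out, where the lone sample was assumed to vary like the other genotype. It was 4749 without the first control, 5447 without the second, 1006 without the first KO sample and 1320 without the second. Probes at least 1.5-fold higher in KO, 613, were 1234 with the 75th percentile, 182 with normexp and 1155 in the deposited values. They were 928 with probes well above background in at least 1 genotype, 2563 without a filter, 60 at 2-fold and 702 to 1124 without a sample. The 470 lower became, in the same settings, 289, 194, 302, 677, 2353, 76 and 645 to 1240. The highest of these came without the second control for the higher probes (1124) and without the first for the lower (1240), and leaving out the second KO sample gave 1034 and 777 and the second control 941 lower. The split between higher and lower therefore depended on the scaling, and the cause was not tested.

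With the sample number as a replicate block, 3440 probes (9.36%) had an unadjusted p under 0.05 and 0 passed adjustment. Deviations of samples with the same number correlated at r = 0.33 across probes, but nothing states that the numbers pair mice.

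Of 1503 values of 117 named genes under the alternatives, 1493 kept direction and side of the threshold. The variance trend, the replicate block, the other background filters and the left-out rows used the same signals of each probe. Those settings could therefore not change a gene's direction. No probe passed adjustment in any setting, so the side of the threshold could not differ either. The values of Atf4 reversed to -0.0099 with normexp and ranged from -0.048 to 0.068 without a sample. With a sample left out, Prox1 ranged from -0.14 to 0.29, Fibcd1 from -0.55 to 1.14, Ern1 from -0.054 to 0.068, Ddit3 from -0.14 to 0.64 and Dcx from -0.28 to 0.086. Of 630 list medians, 545 moved by less than the spread between samples. These include the variance trend and the replicate block, which could not move a median.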
